A study of Rattus norvegicus with 8 samples.

Results

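Reads from poly(A) RNA over the precursor loci of miR-132 and miR-212 were examined in the striatum of rats that self-administered methamphetamine (METH) or saline. The rows Mir132 and Mir212 are 2 of 17337 gene rows in the count data. They were chosen by their higher read counts in METH rats than in saline rats, so that difference is given as a description, without a test. The animals were male Sprague-Dawley rats labelled WT, with 4 in each group, all of which had food training and a jugular catheter. METH rats took 0.05 mg/kg per infusion in 2 h sessions over 16 days. Saline rats had the same sessions with saline only. Rats with stable lever pressing were kept, and neither their age nor the time from the last session to tissue collection is given in the sources used here.

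MicroRNAs are cut from longer primary transcripts, first in the nucleus and then in the cytoplasm, into short mature strands, which guide Argonaute proteins to matching sites in messenger RNAs. miR-132 and miR-212 lie side by side in one locus that is known for transcription driven by CREB, the cyclic AMP response element binding protein, after neuronal activity, and in the striatum miR-212 is known from work on cocaine intake. The libraries were made from RNA with a poly(A) tail, so their reads on a hairpin are taken as polyadenylated primary transcripts or pieces of them. The source of these reads was not tested. Mature miR-132 and miR-212 were not measured in these libraries.

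The mature strands are shown because the loci make products with a shared seed. The sequences are from RefSeq (assembly GRCr8, plus strand) and run 5′ to 3′, with the seed (bases 2 to 8) in capitals.
rno-miR-132-3p: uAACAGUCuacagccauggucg
rno-miR-212-3p: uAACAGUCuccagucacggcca
rno-miR-132-5p: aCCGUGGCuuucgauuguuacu
rno-miR-212-5p: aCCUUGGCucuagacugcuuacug
The 3p strands had the same base at 17 of 22 positions and were identical over the first 9. Counted from 1 at the 5′ end of miR-132-3p, miR-212-3p differs by A10C, C14U, U17C, U20C and G22A. Of the 724 mature rat microRNAs in the table, these 2 were the only ones with the seed aacaguc, whose match in a messenger RNA reads gacuguu. The 5p strands had 14 of 22 compared positions in common and different seeds.

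The hairpin of Mir132 is shown to place its strands, with both mature strands in capitals.
Mir132: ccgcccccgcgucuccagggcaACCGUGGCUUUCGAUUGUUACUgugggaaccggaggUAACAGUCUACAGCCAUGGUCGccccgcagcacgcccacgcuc
It lies at chr10:60522033-60522133 of GRCr8, on the plus strand. On the same strand of that assembly, miR-212-5p lies at chr10:60521771-60521794 and miR-212-3p at chr10:60521811-60521832, upstream of Mir132. There are 222 bases between the end of miR-212-3p and the start of miR-132-5p, and no gene is listed between the hairpins. A sequenced fragment that is long enough can therefore touch both hairpins, and how such fragments were counted is not given in the sources used here. The files were made on rn6, so these positions describe the sequences and not the counted regions.

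Total counts lay between 18135939 and 21211920 per rat. The smallest number taken as detected, 3 counts in a library, came to between 0.142 and 0.169 CPM, the counts scaled to library size, which was adjusted for composition by the TMM method. All 8 striatal projection neuron markers (Drd1, Drd2, Ppp1r1b and others) were read, at a summed 14020 to 14825 CPM in saline rats and 14765 to 18821 CPM in METH rats. Saline replicate 1 stood apart by 4 markers of cortical excitatory neurons, which summed to 75.3 CPM there, 3.35 to 4.06 CPM in the other saline rats and 3.74 to 13.5 CPM in METH rats. Slc17a7, the vesicular glutamate transporter of cortical neurons, had 1198 counts in that library and 64 to 76 in the other saline libraries. The hypothalamic peptide markers were Oxt, Avp, Hcrt and Pmch, the last at 0 in every rat. They summed to 71.5 CPM in METH replicate 4 and 33.3 CPM in saline replicate 2, against 1.87 to 6.12 CPM in the other rats. The 4 general neuron markers summed to 1718 to 2020 CPM in saline rats and 1240 to 1658 CPM in METH rats, without overlap. Most of that difference came from 1 gene, Snap25 (1264.6 and 882.6 CPM, FDR = 0.0632 by the edgeR quasi-likelihood test), while Syt1, Stmn2 and Rbfox3 overlapped between the groups and Rbfox3 was at 135.7 and 144.3 CPM. The 5 microglia markers summed to 229.0 to 268.5 CPM in saline rats and 187.5 to 233.2 CPM in METH rats, and all 5 had log2 fold changes below 0, with a median of -0.22. Cx3cr1, a chemokine receptor of microglia, was called lower (31.2 and 18.8 CPM, FDR = 0.0408, same test). Leaving out any rat other than saline replicate 1 or METH replicate 2 ended that call, with an FDR of up to 0.144 without saline replicate 4 (same test). The part of these marker differences in the results below was not tested. In tissue RNA, fewer cells of a type and less RNA per cell cannot be told apart.

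Mir132 had 33, 18, 14 and 20 counts in saline replicates 1 to 4 and 112, 157, 144 and 167 counts in METH replicates 1 to 4. Scaled, these were 1.81, 0.900, 0.676 and 0.945 CPM in saline rats and 5.48, 7.47, 8.13 and 8.80 CPM in METH rats. Every METH rat was above every saline rat, and the lowest METH rat was 3.03 times the highest saline rat. The saline mean was 1.08 ± 0.499 CPM and the METH mean 7.47 ± 1.43 CPM (SD, n = 4 each), a ratio of 6.90. The fitted log2 fold change was 2.79 (standard error 0.30), the fifth highest among the 12014 genes that passed the expression filter.

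Mir212 had 36, 22, 6 and 24 counts in saline replicates 1 to 4 and 83, 92, 82 and 126 counts in METH replicates 1 to 4. These were 1.98, 1.10, 0.290 and 1.13 CPM in saline rats and 4.06, 4.38, 4.63 and 6.64 CPM in METH rats. The groups did not overlap here either, and the lowest METH rat was 2.06 times the highest saline rat. The saline mean was 1.12 ± 0.689 CPM and the METH mean 4.93 ± 1.17 CPM (SD, n = 4 each), a ratio of 4.38. The log2 fold change was 2.14 (standard error 0.41), the 13th highest of all genes tested. Groups without overlap and higher in METH rats were found for 3.75% of the genes tested, and 0.449% of them were called higher. A gene was called where its FDR (false discovery rate) lay under 0.05 and its log2 CPM, averaged over the rats, over 1. Since the same contrast chose Mir132 and Mir212, nothing is read from these shares.

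**Figure D1:**
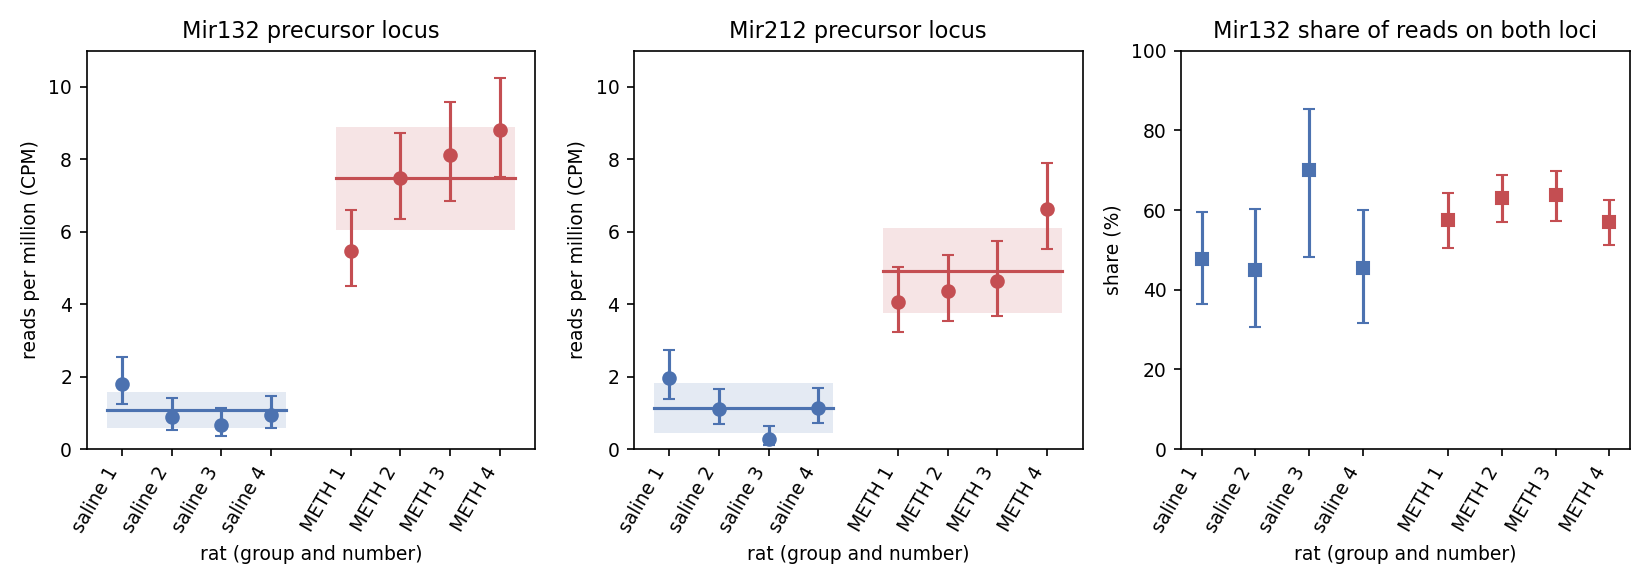
CPM on the Mir132 and Mir212 precursor loci in each rat (left and middle, with exact 95% Poisson intervals of the counts, the group mean as a line and ± 1 SD as a band) and the share of their summed reads that fell on Mir132 (right, in percent, with 95% Wilson intervals). Mir132 sits between 5.48 and 8.80 CPM in the 4 METH rats and between 0.676 and 1.81 CPM in the 4 saline rats, and the share of saline replicate 3 stands above those of the other saline rats.

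Within each group the rats stood in the same order for both loci. Saline replicate 3 was lowest and saline replicate 1 highest among saline rats, and METH replicate 1 was lowest and METH replicate 4 highest among METH rats. The levels of saline rats were spread over 2.68-fold for Mir132 and 6.82-fold for Mir212, and those of METH rats over 1.61-fold and 1.63-fold (CPM). The coefficient of variation of Mir132 was 46.1% in saline rats, against 21.7% from counting alone, and 19.2% in METH rats, against 8.30%. For Mir212 it was 61.2% against 21.3% in saline rats and 23.7% against 10.2% in METH rats. Without saline replicate 1, the library with cortical markers, the saline mean was 0.840 ± 0.144 CPM (SD, n = 3) for Mir132 and 0.841 ± 0.478 CPM (SD, n = 3) for Mir212. The ratios of METH to saline means were then 8.89 and 5.86. Without METH replicate 4, the highest METH rat for both loci and the one with most hypothalamic peptide reads, the ratios were 6.49 and 3.87. Without saline replicate 3 they were 6.13 and 3.51.

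Per kilobase of hairpin (101 bases for Mir132 and 111 for Mir212 in GRCr8), the loci were close in saline rats, at 10.7 ± 4.95 CPM per kb for Mir132 and 10.1 ± 6.20 CPM per kb for Mir212 (SD, n = 4). In METH rats Mir132 was at 74.0 ± 14.2 CPM per kb and Mir212 at 44.4 ± 10.5 CPM per kb (SD, n = 4). A read counts when it overlaps a hairpin, so the region that collects reads is longer than the hairpin itself. Of the reads on both loci, 49.1% (85 of 173, 95% Wilson interval 41.8% to 56.5%) fell on Mir132 over all saline rats and 60.2% (580 of 963, 57.1% to 63.3%) over all METH rats. Mir132 makes up 47.6% of the summed hairpin length. By rat, the share was 47.8%, 45.0%, 70.0% and 45.5% in saline replicates 1 to 4 and 57.4%, 63.1%, 63.7% and 57.0% in METH replicates 1 to 4. The groups overlapped, through saline replicate 3, whose share rests on 20 reads (interval 48.1% to 85.5%). The mean share was 8.23 percentage points higher in METH rats with all rats and 14.2 points higher without saline replicate 3. The intervals cover counting error only.

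Among the 456 rows named as microRNA genes, 311 had no read in any rat and 25 passed the expression filter, Mir132 and Mir212 included. Of the other 23, none was called in either direction, beside 0.516% of all genes tested (62 of 12014, edgeR quasi-likelihood test). DESeq2 called none either and gave 12 of them no adjusted p. At an unadjusted p below 0.05 by edgeR, 1 of the 23 was higher in METH rats (Mir770, FDR = 0.430) and none lower. Over all genes tested these shares were 6.26% and 4.88%. None of the 23 had groups without overlap, which 6.39% of all genes tested had in either direction. Their log2 fold changes lay between -0.55 (Mir3547) and 0.88 (Mir3597-2). The median was 0.20, beside -0.01 for all genes tested, and 17 of the 23 were above 0, beside 48.6% of all genes. By mean CPM in saline rats, Mir132 ranked 16th and Mir212 14th of the 25. In METH rats the ranks were 3 for Mir132 and 7 for Mir212. The pair held 1.19% to 4.76% of all reads on microRNA rows in saline rats and 11.1% to 14.5% in METH rats. Reads on all other microRNA rows summed to 64.6 to 79.9 CPM in saline rats and 61.6 to 102.6 CPM in METH rats, with overlap between the groups.

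**Figure D2:**
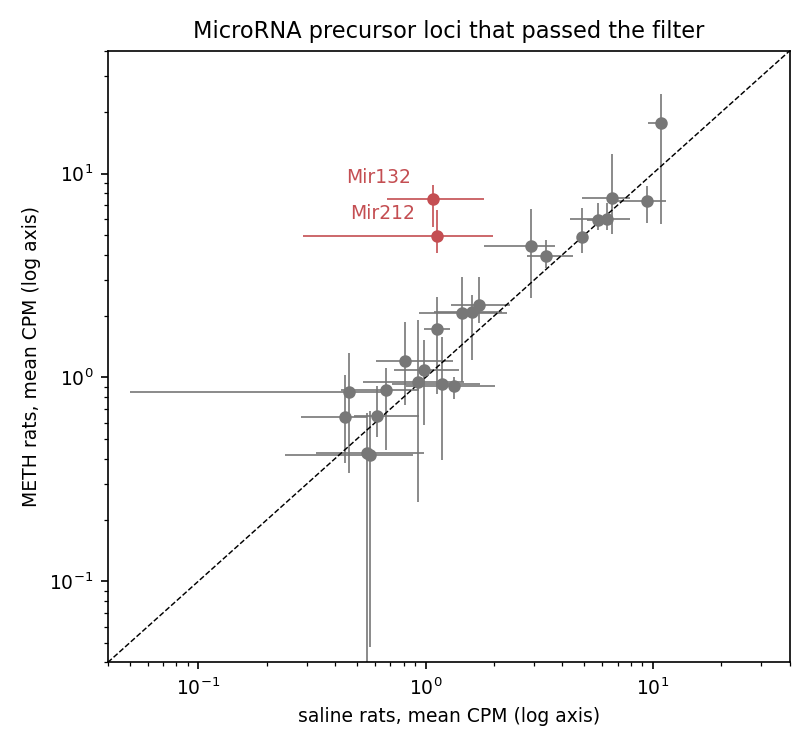
Mean CPM in METH rats (vertical) against saline rats (horizontal) for the 25 microRNA precursor loci that passed the expression filter, both on log axes, with bars from the lowest to the highest rat of each group (bars that reach 0 run to the edge) and a dashed line of equality. Mir132 and Mir212, in red, lie above the line at 7.47 and 4.93 CPM in METH rats against 1.08 and 1.12 CPM in saline rats, and the other 23 loci lie nearer to it.

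The genes on either side of the locus were read out as a description of the region. In the gene order of GRCr8, the 3 nearest tested genes before Mir212 were Hic1, Smg6 and Srr, and the 3 after Mir132 were Ovca2, Dph1 and Rtn4rl1. None was called by edgeR, beside 0.516% of all genes tested, or by DESeq2, which gave Hic1 no adjusted p. By edgeR 1 (Dph1, higher) had an unadjusted p below 0.05, beside 6.26% of all genes higher and 4.88% lower. Log2 fold changes of these neighbours lay between -0.06 (Srr) and 0.26 (Dph1). Nothing is read from the lack of calls among so few genes. Hic1, a transcriptional repressor and the nearest gene, averaged 1.30 ± 0.677 CPM among the saline rats and 1.33 ± 0.366 CPM among the METH rats (SD, n = 4 each). Hic1 was thinly read, at 6 to 38 counts per rat. It was lowest in saline replicate 1, at 0.329 CPM from 6 counts. Mir132 and Mir212 were highest among saline rats in that library, and a relation between these levels was not tested. Dph1, an enzyme of diphthamide synthesis, averaged 26.0 ± 1.89 CPM among the saline rats and 31.1 ± 1.56 CPM among the METH rats (SD, n = 4 each). The groups did not overlap (unadjusted p = 0.0156, FDR = 0.325 by the quasi-likelihood test), as for 6.39% of all genes tested in either direction. Ovca2 and Dph1 overlap in GRCr8, so their reads may not be separable.

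Likeness to each locus was measured over the 8 rats as the root mean square difference of log2 CPM, after each gene was centred on its mean in the 4 saline rats. A small value picks genes with a fold change of like size, so the fold changes of these genes are not evidence of their own. For Mir132 the most alike were Nr4a3 (0.43), Egr2 (0.46), RGD1561282 (0.51) and Nr4a1 (0.52), followed by Mir212 (0.53), Fosl2, Arc, Fos, Serpinf2 and Egr4. For Mir212 they were Nr4a1 (0.39), RGD1561282 (0.43), Arc (0.46), Egr2 (0.48) and Fos (0.48), followed by Mir132, Junb, Fosl2, Gpr3 and Dusp5. Nr4a1 and Nr4a3 are orphan nuclear receptors, Egr2 and Egr4 zinc finger transcription factors, Fos, Fosl2 and Junb subunits of AP-1, and Arc a synaptic protein, all made soon after neuronal activity.

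Nr4a1 was at 146.5, 63.7, 45.4 and 65.3 CPM in saline replicates 1 to 4 and at 300.3, 275.8, 317.4 and 314.5 CPM in METH replicates 1 to 4. Saline replicate 1 was highest and saline replicate 3 lowest among saline rats, the order also seen for Mir132 and Mir212. Nr4a3 was at 9.33, 7.45, 11.1 and 11.2 CPM in saline rats and at 59.0, 70.5, 69.3 and 65.0 CPM in METH rats. Its saline rats stood in another order, with replicate 2 lowest and replicate 4 highest, and the groups did not overlap. Arc also had its lowest saline rat in replicate 3 (75.8 CPM) and its highest in replicate 1 (228.2 CPM), but replicates 2 and 4 stood the other way round, and METH replicate 2 was its lowest METH rat at 306.7 CPM.

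RGD1561282, listed in GRCr8 as Linc00176, had 5, 1, 0 and 1 counts in saline replicates 1 to 4 and 21, 12, 11 and 14 in METH replicates 1 to 4 (FDR = 0.132 by the quasi-likelihood test). Serpinf2, which encodes the plasmin inhibitor alpha-2-antiplasmin, had 11, 4, 4 and 4 counts in saline rats and 22, 26, 44 and 13 counts in METH rats (FDR = 0.147, same test). Both are thinly read and neither was called. Serpinf2 lies on the chromosome of Mir132, with 6 tested genes between them in GRCr8, Ovca2 to Serpinf1. Those 6 genes had log2 fold changes between -0.47 (Smyd4) and 0.26 (Dph1). None was called by the quasi-likelihood test, beside 0.516% of all genes tested, or by DESeq2, which gave 1 of them no adjusted p. By the quasi-likelihood test 2 had an unadjusted p below 0.05, Smyd4 lower and Dph1 higher, beside 4.88% and 6.26% of all genes.

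**Figure D3:**
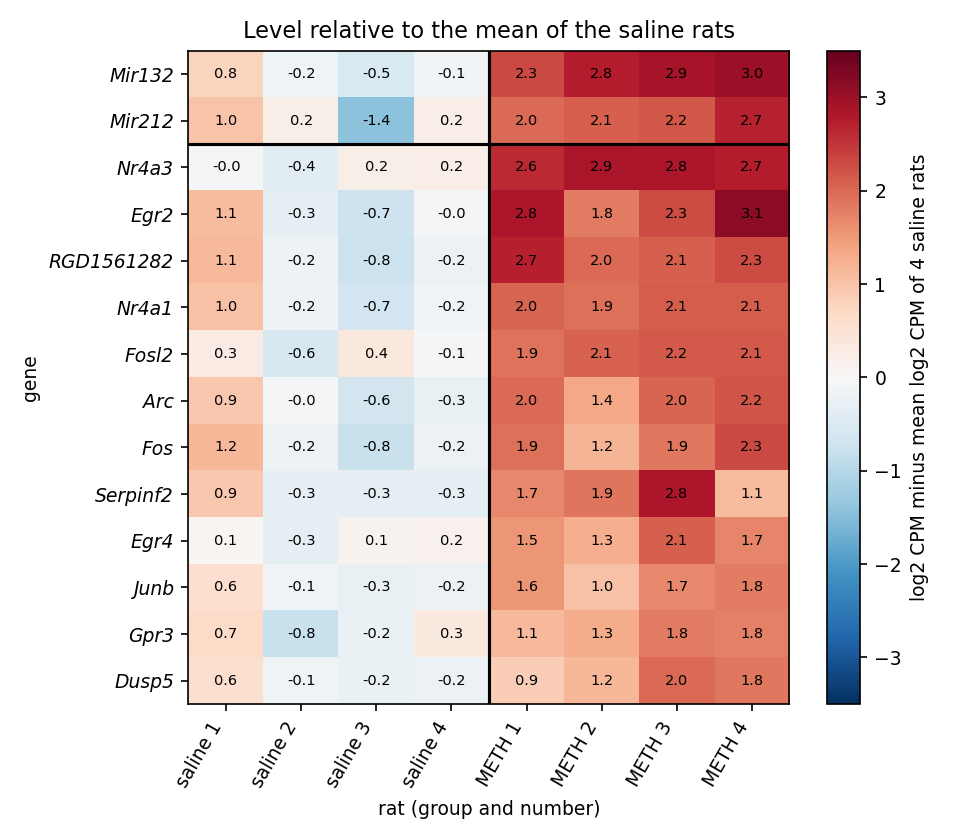
Log2 CPM of Mir132, Mir212 and the genes most like them in each rat, relative to the mean of the 4 saline rats (columns are rats, rows are genes, red is above and blue below that mean). Both loci are above the saline mean in every METH rat. Saline replicate 1 is the highest saline rat for Mir132, Mir212 and genes such as Egr2, RGD1561282, Nr4a1, Arc, Fos, Serpinf2, Junb and Dusp5. It is not the highest for Nr4a3, Fosl2 or Egr4.

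A list of 25 activity genes with known or likely control by CREB was read out beside the locus, and 24 of them were tested. Nr4a2, an orphan nuclear receptor like Nr4a1 and Nr4a3, is not on this list and is read out among the targets. Its log2 fold change was -1.12 (standard error 0.65) with all rats and 0.25 without saline replicate 1. METH rats had 14 of the 24 called higher and none lower, beside 0.449% of all genes called higher (edgeR quasi-likelihood test). The median log2 fold change of the 24 was 0.95, beside -0.01 for all genes tested, and 16 had METH rats above all saline rats, against 3.75% of all genes. The list was chosen with earlier results of these data known, so these shares are given as a description. Many of its called genes were also among those most like Mir132 or Mir212 above. The called genes ran from Crem at 0.60 (standard error 0.10, FDR = 0.0149) to Nr4a3 at 2.75 (standard error 0.13, FDR = 1.14e-07) by the same test. Egr2 had a log2 fold change of 2.45, Fosl2 2.05, Nr4a1 1.91, Arc 1.80, Fos 1.70, Egr4 1.66, Dusp5 and Junb each 1.5, Fosb 1.26, Egr1 1.02, Nptx2 0.83 and Per1 0.74. The log2 fold change of Mir132 was close to that of Nr4a3, and that of Mir212 lay between Fosl2 and Egr2. Homer1, a scaffold protein gene, was at 0.03 and Ppargc1a, a coactivator of mitochondrial genes, had the lowest value, -0.37 (standard error 0.17). Neither was called. Without METH replicate 3 or without saline replicate 2, 11 of the 24 were called. Fos was the least firm call (FDR = 0.0473 with all rats, edgeR quasi-likelihood test), and leaving out any rat other than saline replicate 1 or METH replicate 2 raised it above 0.05, up to 0.176 without saline replicate 2. Dusp5 was not called without saline replicate 2, saline replicate 4 or METH replicate 3 (FDR = 0.0683, 0.0646 and 0.0520 by the same test), nor was Nptx2 without saline replicate 2 or METH replicate 3 (FDR = 0.0688 and 0.0741). Dusp5, a phosphatase of ERK, Nptx2, a synaptic pentraxin, and Per1, a clock gene, are made after neuronal activity.

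In this list saline replicate 1 was the highest saline rat for 12 of the 24 genes (50.0%), against 25% of all genes tested. Saline replicate 3 was the lowest saline rat for 10 of the 24 (41.7%), against 28.0% of all genes. Without saline replicate 1, 15 of the 24 were called higher. The part of the cortical markers in that library's levels was not tested.

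Regulators of the locus were next: CREB and its partners, the repressor Rest, BDNF with its receptor, and ERK with its downstream kinases. Of 15 listed, 13 were tested and 1 was called, beside 0.516% of all genes tested. This was Crem, which rose from 21.4 ± 2.40 CPM to 32.5 ± 1.83 CPM (SD, n = 4 each) and encodes a CREB relative with activator and repressor forms. Crem and Bdnf are also on the list of activity genes, so the Crem call is the one already counted there. The median log2 fold change of the 13 was 0.02. Creb1 itself was at 9.20 CPM in saline rats and 7.56 CPM in METH rats (log2 fold change -0.28 with a standard error of 0.23, FDR = 0.655 by edgeR). Crtc2, a CREB coactivator, and Crebbp, a histone acetyltransferase that binds CREB, had log2 fold changes of 0.35 and 0.24, and neither was called. With Crem, 3 of the 13 were higher at an unadjusted p below 0.05 and none lower (edgeR), beside 6.26% and 4.88% of all genes. Crem and Crebbp, 2 of the 13, had groups without overlap, beside 6.39% of all genes in either direction. Rest had the lowest value, -0.55 (standard error 0.27, FDR = 0.466, same test). Bdnf, with 0 to 23 counts per rat, did not pass the expression filter, and its highest count was in saline replicate 1. Crtc3 was not analysed here. Without saline replicate 4 or METH replicate 4, Crem was not called (FDR = 0.0649 and 0.0620, same test).

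No call was found among genes that cut primary microRNAs, export and dice the precursors and load the strands (edgeR quasi-likelihood test). Over all genes tested 0.516% were called, so nothing is read from the lack of calls in this short list. Of 17 listed, 15 were tested, with log2 fold changes between -0.16 (Prkra, a partner of Dicer) and 0.26 (Ddx17, an RNA helicase of the nuclear cutting complex) and a median of -0.01. At an unadjusted p below 0.05, 2 were higher (Ddx17 and Tarbp2) and none lower, beside 6.26% and 4.88% of all genes. DESeq2 called none of the 15. Drosha, the nuclear cutting enzyme, was at 102.2 CPM in saline rats and 109.5 CPM in METH rats, and its partner Dgcr8 at 37.5 and 36.6 CPM. Dicer1 and Tnrc6c were not analysed here.

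Of 20 genes known as targets of miR-132 or miR-212, 16 were tested and none was called by edgeR, beside 0.516% of all genes tested. DESeq2 called none either and gave Nr4a2 no adjusted p. With so small a share over all genes, nothing is read from the lack of calls in a short list. Their median log2 fold change was -0.10, beside -0.01 for all genes tested, and 4 of the 16 were above 0, beside 48.6% of all genes. At an unadjusted p below 0.05, 2 were lower and none higher, beside 4.88% of all genes lower and 6.26% higher. Zeb2, a zinc finger repressor, was at 38.2 CPM in saline rats and 30.0 CPM in METH rats (log2 fold change -0.35 with a standard error of 0.12, FDR = 0.295 by edgeR). Tmem106b, a lysosomal membrane protein gene, was at 72.1 and 62.1 CPM (-0.22, standard error 0.08, FDR = 0.367, same test).

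The lowest value among the targets, -1.12 (standard error 0.65), was that of Nr4a2, an orphan nuclear receptor, and it rests on 1 library. Nr4a2 was at 11.03 CPM in saline replicate 1, 1.32 to 1.59 CPM in the other saline rats and 0.685 to 2.48 CPM in METH rats. Without saline replicate 1 its log2 fold change was 0.25. The highest value among the targets was that of Spred1, an inhibitor of ERK signalling, at 0.28 (standard error 0.13, FDR = 0.452 by edgeR). Arhgap32, Ep300, Sirt1 and Rfx4 were not analysed here.

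**Figure D4:**
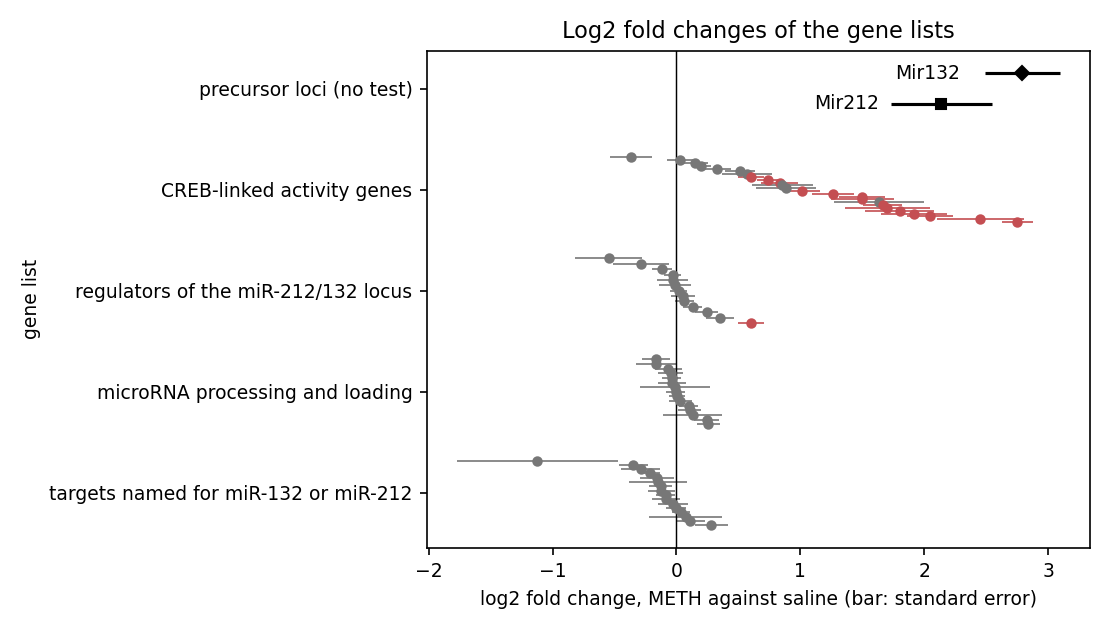
Log2 fold changes of METH against saline rats (horizontal, with standard errors) for the tested genes of each list (vertical) and for Mir132 and Mir212, with genes called higher in red, genes not called in grey and the loci, which have no test, in black. Activity genes reach from -0.37 to 2.75, Mir132 and Mir212 stand at 2.79 and 2.14, and the targets lie between -1.12 and 0.28.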

How the data were processed

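Striatal poly(A) RNA of 8 rats was sequenced. The authors used cutadapt 1.18 to trim the paired-end reads, STAR 2.7.0e for alignment to rn6, and, for counts per gene, featureCounts (Subread 1.6.4) and deposited the raw counts in 1 column per rat. The annotation, strand setting and handling of fragments over several genes are not given in the sources used here. Columns were assigned by the group and number in their names.

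Counts were filtered with filterByExpr (minimum count 10), scaled by TMM and compared by quasi-likelihood F-test (edgeR 4.0.16, R 4.3.3; DESeq2 1.42.0 as an alternative). The test used for these data is not given in the sources used here. A call needed an FDR below 0.05 (Benjamini-Hochberg over all 12014 genes tested) and a mean log2 CPM above 1, limits the study gives for its small RNA data. The fold change limit it also sets there was not used. Log2 CPM used a prior count of 2, and a standard error is the size of the log2 fold change divided by the square root of F. Depth was 18135939 to 21211920 counts per rat, and low counts limit precision. On simulated counts of 12014 genes, 168 of 200 genes given a log2 change of 1 were called (84.0%), with 12 false calls.

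Genes named are the loci, the 10 genes most like each, the called and extreme genes of each list, the 3 nearest tested genes on each side, and the extreme microRNA rows. Other genes were named after their values were seen. A listed gene is counted but not reported here by itself. The members, lists and tests were chosen with earlier results of these data known. Each library was taken as 1 rat, and p-values measure the spread between these libraries.

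Rat numbers come from the labels and mark different animals. The deviations of same-numbered rats correlated between -0.20 and 0.04, so the numbers were not taken to pair rats. Alternatives were DESeq2, RLE, upper-quartile and total-count scaling, no filter beyond 1 count, the rat number as a block, the ratio of mean CPM and each rat left out in turn.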

Additional observations from a re-analysis of the deposited data

Results flagged for a closer look

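A rat was set apart where its distance to the next rat, divided by the spread of all 4 rats (here called the gap), passed Dixon's 95% value. This held in 12 of 98 groups of 4. Chance flags about 5% of groups.

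The Mir132 share of the reads on both loci was 70.0% in saline replicate 3 and 45.0% to 47.8% in the other saline rats (gap 0.887). It rests on 14 and 6 counts.

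Saline replicate 1 was flagged most often. Its cortical excitatory neuron markers summed to 75.3 CPM (gap 0.990). On the log2 CPM scale it was also above the other saline rats for Nr4a2 (3.48 against at most 0.76, gap 0.915), Serpinf2 (-0.50 against at most -1.73, gap 0.958), Dusp5 (3.37 against at most 2.69, gap 0.852) and Junb (8.01 against at most 7.30, gap 0.851). Mir132 and Mir212 were highest among saline rats in the same library, with gaps that did not pass. The part of cortical tissue was not tested.

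The hypothalamic peptide markers stood apart in saline replicate 2 (33.3 CPM, gap 0.981) and in METH replicate 4 (71.5 CPM, gap 0.957). METH replicate 4 was also the highest rat for Mir132 and Mir212. METH replicate 3 was low for Rest (gap 0.884) and Ppargc1a (gap 0.852), METH replicate 1 for Ddx17 (gap 0.866) and saline replicate 2 for Mir3597-2 (gap 0.837).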

How the results depend on the processing

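The log2 fold change of Mir132 lay between 2.76 and 2.82 with all rats and between 2.62 (without saline replicate 3) and 3.14 (without saline replicate 1) with a rat left out. That of Mir212 lay between 2.10 and 2.25, and between 1.81 and 2.54 without the same rats. Neither changed sign. With the replicate block, Mir132 was at 2.82 and Mir212 at 2.25.

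Of all genes, 191 were called with DESeq2, 37 with the replicate block and 37 (without saline replicate 2) to 70 (without METH replicate 1) with a rat left out, against 62. Among the regulators, 0 were called with the replicate block and 0 to 1 with a rat left out. Activity genes called ranged from 11 to 16 of 24 over all alternatives, and targets and processing genes stayed at 0 in each. The mean share of Mir132 was 5.87 to 14.2 points higher in METH rats with a rat left out. The cause of these differences was not tested.

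Log2 fold changes near 0 changed sign. With total counts Hic1 was at -0.0145 and Rtn4rl1 at -0.0291, and with upper-quartile scaling Rtn4rl1 was at -0.000135. With a rat left out the ranges were -0.29 to 0.26 for Hic1, -0.0212 to 0.0407 for Rtn4rl1, -1.41 to 0.255 for Nr4a2, -0.0390 to 0.0076 for Smg6 and -0.0957 to 0.00478 for Srr. Nr4a2 changed sign without saline replicate 1. Fos, Dusp5, Nptx2, Crem, Gpr3 and Cx3cr1 were not called in some alternatives, with the largest FDR at 0.176, 0.107, 0.0741, 0.0848, 0.158 and 0.144 (edgeR quasi-likelihood test). DESeq2 called each of them, and also Snap25 (FDR = 0.00133). By edgeR, Snap25 was called without METH replicate 4 (FDR = 0.0381) and, with all rats, where every gene with at least 1 count was kept (FDR = 0.0425). No paired analysis beyond the block was made, since the numbers mark different rats. Low counts limit Mir132 and Mir212 in saline rats most, where 6 to 36 reads stand behind a value.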
